A study of Mus musculus with 3 samples.

Results

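The regions described here are autosomal sites of mouse B cell chromatin that were called with an antibody against the histone demethylase Jmjd2c and shared no base with any region called with an antibody against its relative Jmjd2a. The regions were chosen by peak position alone: the rule took every Jmjd2c peak on chromosomes 1 to 19 whose interval met no Jmjd2a peak. It found 410 regions among 625 autosomal Jmjd2c peaks (65.6%, 95% Wilson interval 61.8 to 69.2) and among 1113 Jmjd2c peaks in all. They covered 86.2 kb, and the 215 remaining autosomal Jmjd2c peaks, which overlapped a Jmjd2a peak and are called shared below, covered 66.3 kb. Membership was read from the positions of the peaks themselves, so the share of 65.6% describes the rule and is no finding.

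The series has 3 libraries, all from spleen B cells whose cell type label reads B220+, taken from C57BL/6 background mice of genotype Tg(IghelMD4)4Ccg, a transgene that gives B cells a receptor for hen egg lysozyme. The source name reads B221+ for the Jmjd2c library and B222+ for the IgG library, against the cell type label and the sorting protocol, which give B220 for all. Sorted on magnetic beads, the cells then received HEL, IL-21 and an antibody to mouse CD40. All libraries share this genotype and stimulation and differ in the antibody, which was anti-Jmjd2a, anti-Jmjd2c or, in the third library, normal rabbit IgG. There was no unstimulated group and no library from cells without the demethylases, the number or age of the mice is not given in the sources used here, and the labelled cell type cannot be checked against markers in peak lists.

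Jmjd2a and Jmjd2c, also known as Kdm4a and Kdm4c, are JmjC-domain enzymes that use iron and 2-oxoglutarate to remove methyl groups from lysines of histone H3, among them the lysine methylated in heterochromatin and a lysine methylated along transcribed genes. Both carry plant homeodomain and Tudor domains, and Tudor domains can read methylated histone tails. CD40 ligation and IL-21 are signals that T follicular helper cells give to B cells in germinal centres, where B cells divide and become memory or antibody-secreting cells.

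Peak positions are in mm9 and counted from 1. No mm9 genome or gene annotation was used here, so the regions are named by position, and neither their sequences nor their genes are given. The lists hold no read numbers, the depth behind a peak is therefore unknown, and a region missing from the Jmjd2a list is not shown to lack Jmjd2a. IgG peaks were not analysed here, so signal that any antibody would give cannot be told apart from binding by Jmjd2c. With 1 library per antibody no value below has a replicate check. Intervals cover counting error alone, and neighbouring peaks are not independent.

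The Jmjd2c-only regions mostly had low values of the authors' own score, a value per peak that starts at 50.01 in the Jmjd2c list. Their median score was 59.3 (95% order-statistic interval 58.5 to 61.0), with quartiles of 54.1 and 72.0 and a maximum of 165.58. The shared peaks of the same list had a median of 91.7 (84.4 to 96.9), quartiles of 65.4 and 143.5 and a maximum of 2455.24. The 2 ranges overlapped from the floor of the list up to the highest Jmjd2c-only score, and every autosomal Jmjd2c peak above that score was shared. A score under 60 was given to 213 of the 410 regions (52.0%) and to 40 of the 215 shared peaks (18.6%). A score of at least 100 was reached by 19 Jmjd2c-only regions (4.63%, 2.99 to 7.12) and by 90 shared peaks (41.9%, 35.5 to 48.5). Unshared peaks of the Jmjd2a list were low within their own list as well, where the 321 autosomal Jmjd2a-only peaks had a median of 60.7 (quartiles 53.7 and 72.9) and the shared Jmjd2a peaks had 103.5.

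**Figure D1:**
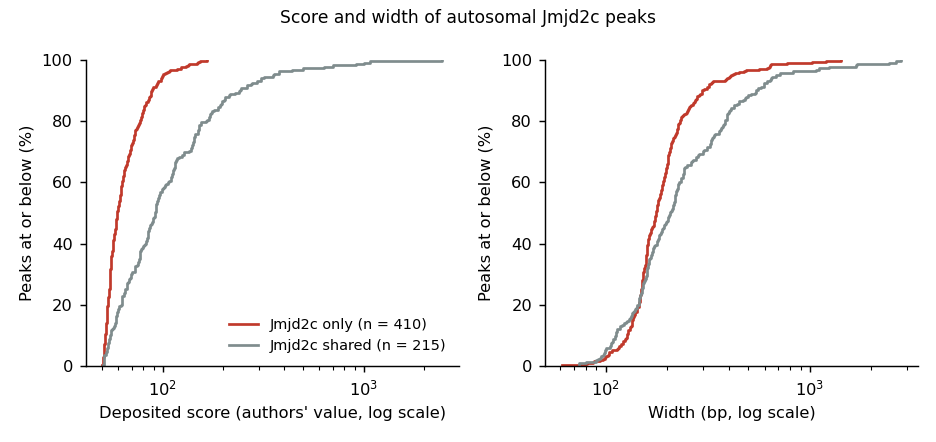
Cumulative share of autosomal Jmjd2c peaks (y axis, %) at or below a deposited score (left, log axis) and a width in bp (right, log axis), for the 410 Jmjd2c-only regions and the 215 shared peaks. The Jmjd2c-only curve ends at a score of 165.58, and its median width of 177 bp lies below the shared median of 206 bp.

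Read along the score, the share of autosomal Jmjd2c peaks without a Jmjd2a partner was lower in each higher score class. Between 50 and 60 it was 213 of 253 peaks (84.2%, 79.2 to 88.2). It was 84 of 109 (77.1%, 68.3 to 84.0) between 60 and 70, and 46 of 65 (70.8%, 58.8 to 80.4) between 70 and 80. These first 3 classes had overlapping intervals. The share was 48 of 89 (53.9%, 43.6 to 63.9) between 80 and 100 and 16 of 56 (28.6%, 18.4 to 41.5) between 100 and 150. At 150 and above, 3 of 53 peaks (5.66%, 1.94 to 15.4) had no partner.

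**Figure D2:**
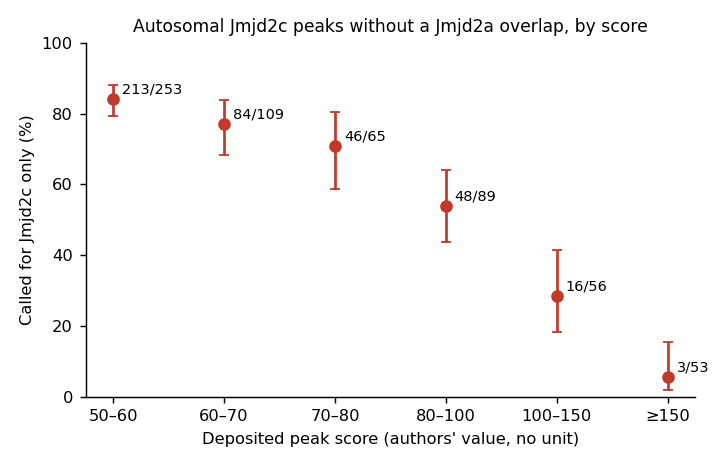
Percentage of autosomal Jmjd2c peaks that overlapped no Jmjd2a peak (y axis) in classes of the authors' deposited score (x axis). Points are shares, bars are 95% Wilson intervals, and fractions give regions over peaks; the share goes from 84.2% in the lowest class to 5.66% in the highest.

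The median width of the Jmjd2c-only regions was 177 bp (169 to 183), with quartiles of 149 and 218 bp and a range from 61 to 1423 bp. This was close to the median of all autosomal Jmjd2c peaks, which include these regions, at 182 bp (176 to 189). Shared Jmjd2c peaks had a median of 206 bp (186 to 221) and reached 2806 bp, and the 321 autosomal Jmjd2a peaks without a Jmjd2c partner had a median of 186 bp (178 to 192). A wide interval has more bases with which to meet another, so width is not independent of the rule. Within classes of score the order was not constant. The Jmjd2c-only median was the lower one between scores of 50 and 60, at 157 against 160 bp, and between 70 and 80, at 187.5 against 201 bp. It was the higher one between 60 and 70 (185 against 156 bp), between 80 and 100 (240 against 226 bp), between 100 and 150 (252.5 against 228 bp) and at 150 and above (389 against 350 bp, with 3 Jmjd2c-only regions in that class). Width and score were related across the Jmjd2c-only regions, with a Spearman rho of 0.48 over the 410 regions, and across the 215 shared peaks, with 0.53. These are descriptions across peaks of 1 library.

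Among Jmjd2c peaks that scored at least 80, those without a partner gathered at an intermediate width. Of the 72 such peaks at least 200 bp and under 300 bp wide, 43 were Jmjd2c-only (59.7%, 48.2 to 70.3). Of the 51 narrower peaks 9 were (17.6%, 9.57 to 30.3), and of the 75 wider peaks 15 were (20.0%, 12.5 to 30.4). The interval of the middle class did not overlap either of the others. In the Jmjd2a list the same classes gave another order, with 33 of 73 (45.2%) under 200 bp, 15 of 50 (30.0%) in the middle and 11 of 77 (14.3%) above. The score limit of 80 need not mean the same in both lists, and these classes were chosen after the values were seen. They also have no upper score limit. At 150 and above, where 3 of 53 Jmjd2c peaks had no partner, median widths were 389 bp for Jmjd2c-only and 350 bp for shared peaks. The low share among wider peaks is therefore partly that of high scores, and width was not compared at equal score here. Jmjd2c peaks with lower scores did not gather in this way. Between scores of 50 and 60 the share at 200 to 300 bp was 75.8%, below 82.4% under 150 bp, 87.0% at 150 to 200 bp and 92.9% from 300 bp. Between 60 and 80 these shares were 76.1%, 61.5%, 81.9% and 70.6% in the same order.

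The 10 regions with the highest scores lay on 9 chromosomes. The first was on chromosome 6 from 142932210 to 142932523, 314 bp wide, with a score of 165.58, and its nearest Jmjd2a peak was 233 kb away. The second, on chromosome 11 from 55078633 to 55079021, scored 159.75 and lay 1.91 Mb from the nearest Jmjd2a peak. The third, on chromosome 15 from 98237996 to 98238401, scored 152.92 and lay 762 kb away. These 3 regions were the ones above 150, and none of them stood near a Jmjd2a call.

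The next 3 in rank did stand beside Jmjd2a calls. On chromosome 4 a region from 3007180 to 3008381 scored 149.94, and a Jmjd2a peak that scored 52.94 in its own list began 826 bp further on. On chromosome 7 a region from 71627982 to 71628621 scored 148.37, with a Jmjd2a peak of score 56.30 at a gap of 228 bp. On chromosome 1 a region from 192126095 to 192126629 scored 148.22, with a Jmjd2a peak of score 67.00 at a gap of 1.44 kb. The Jmjd2a calls of 52.94 and 56.30 were in the low part of their list, where the scores start at 50.01. The one of 67.00 was above the median of autosomal Jmjd2a-only peaks, 60.7, and below that of shared Jmjd2a peaks, 103.5.

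The remaining 4 stood apart from Jmjd2a peaks. The highest of them, with a score of 134.32, was on chromosome 13 (107909739 to 107909941). Chromosome 5 gave one of 132.54 (119793577 to 119793807) and one of 124.66 (15185435 to 15185920), and chromosome 16 gave one of 130.63 (96125913 to 96126124). In this order, their gaps to the nearest Jmjd2a peak were 757, 97.9, 142 and 999 kb. Among all 67 Jmjd2c-only regions that scored at least 80, 56 (83.6%, 72.9 to 90.6) had no Jmjd2a peak within 10 kb. Of the 213 regions that scored below 60, 196 had none (92.0%, 87.6 to 94.96), and these 2 intervals overlapped. At longer distances the higher-scoring regions were less often without a Jmjd2a peak, and the intervals were apart. Within 100 kb, 42 of the 67 had none (62.7%, 50.7 to 73.3), beside 183 of the 213 (85.9%, 80.6 to 90.0). Within 1000 kb the shares were 35.8% (25.4 to 47.8) and 57.3% (50.6 to 63.7). These intervals count neighbouring regions as independent. Several of the higher-scoring regions came from a chromosome 5 stretch around a single Jmjd2a peak and from a chromosome 7 group, both described below. The comparison was not repeated without these clusters, so the separation is no test.

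On the other chromosomes the leading regions scored less. They scored 123.53 on chromosome 14 (46390314 to 46390569), 122.90 on chromosome 12 (88350706 to 88350981), 117.97 on chromosome 8 (10185382 to 10185538) and 104.79 on chromosome 9 (100364888 to 100365148). Below 100 came chromosome 10 with 94.61 (33457245 to 33457359), chromosome 19 with 93.52 (45398566 to 45398837) and chromosome 3 with 88.60 (153729845 to 153730135). The lowest leaders were 87.62 on chromosome 17 (3022727 to 3023145), 85.65 on chromosome 2 (160296028 to 160296213) and 80.70 on chromosome 18 (81252448 to 81252649). Each of the 19 autosomes thus held at least 1 region scoring 80 or more.

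Jmjd2c-only regions were found on every autosome, and their share of a chromosome's Jmjd2c peaks varied around the 65.6% of all autosomes. Chromosome 5 held the most, 60 of its 76 peaks (78.9%, 68.5 to 86.6). Chromosome 19 had no shared peak, with 16 of 16 Jmjd2c-only (lower limit 80.6%). By definition its 8 Jmjd2a peaks then overlapped no Jmjd2c peak. On chromosome 12 the share was 19 of 21 (90.5%, 71.1 to 97.3). Chromosome 18 had the lowest share, 10 of 27 (37.0%, 21.5 to 55.8), followed by chromosome 2 with 22 of 45 (48.9%, 35.0 to 63.0). On the other 14 chromosomes the share lay between 53.8% and 81.8%. Median scores of the regions stayed within 52.7 on chromosome 16 and 64.5 on chromosome 9. On the sex chromosomes, outside the rule, 80 of 488 Jmjd2c peaks (16.4%, 13.4 to 19.9) had no Jmjd2a partner.

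**Figure D3:**
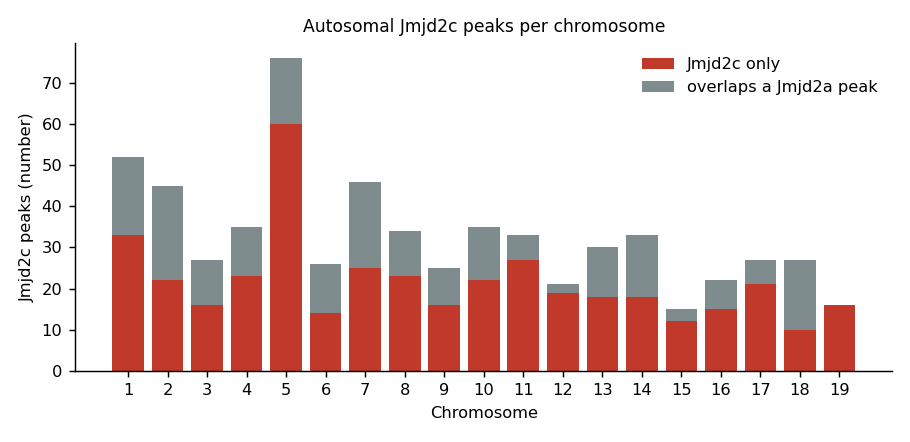
Number of Jmjd2c peaks (y axis) on each autosome (x axis), split into Jmjd2c-only regions and peaks that overlapped a Jmjd2a peak. Chromosome 5 holds the most Jmjd2c-only regions, 60, and chromosome 19 has 16 and no shared peak.

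Most of the regions stood alone. With gaps measured between edges, 322 of the 410 (78.5%, 74.3 to 82.2) had no peak of either list within 10 kb, 282 (68.8%) had none within 100 kb and 138 (33.7%) had none within 1000 kb. These 322 isolated regions were spread over all 19 autosomes and had a median score of 58.7 (56.7 to 59.9) and a median width of 164.5 bp. A further 42 regions lay in 8 groups of at least 3 with gaps of at most 10 kb, 24 formed 12 pairs, and 22 were single with a Jmjd2a peak within 10 kb. The grouped regions scored a median of 66.5 (60.2 to 77.8) and were a median of 296.5 bp wide. By these medians the groups were wider and higher in score than the isolated regions. The 42 grouped regions are not separate sites, since a single chromosome 7 group held 12 of them and several groups lay in a single chromosome 5 stretch. A score of at least 100 was reached by 13 of the 322 isolated regions and by 5 of the 42 grouped ones.

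Several of the paired regions nearly touched. On chromosome 9 a pair from 83245995 to 83246353 had a gap of 7 bp and scores of 50.34 and 50.80. On chromosome 13 the region that scored 134.32 had a neighbour that scored 61.92 at a gap of 17 bp, within 402 bp in all. On chromosome 10 a pair from 63030963 to 63031372 had a gap of 19 bp, widths of 195 and 196 bp and scores of 58.66 and 61.74. Both regions of a chromosome 2 pair from 33789387 to 33789940 scored 54.29. Of the 24 paired regions 0 had a Jmjd2a peak within 1 kb, beside 34 of all 410 regions (8.29%), and this difference was not tested.

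A small part of the set lay beside Jmjd2a peaks without touching them. A Jmjd2a peak stood within 1 kb of 34 regions (8.29%, 5.99 to 11.4), within 10 kb of 45 (11.0%, 8.30 to 14.4) and within 100 kb of 86 (21.0%, 17.3 to 25.2). The median gap was 1086 kb and the longest 25.7 Mb. The 34 close regions had a median score of 60.9 and a range from 50.47 to 149.94, which covers most of the range of all 410. For 17 of them the nearest Jmjd2a peak itself overlapped another Jmjd2c peak, so they flanked a shared site. Among the 321 Jmjd2a-only autosomal peaks (61.3% of 524), 43 (13.4%, 10.1 to 17.6) had a Jmjd2c peak within 1 kb, an interval that overlapped the one above. Of the 34 Jmjd2c-only regions, 16 lay in groups of at least 3, and 11 of these were in a single chromosome 7 group. The interval of 5.99 to 11.4 counts such neighbours as independent.

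**Figure D4:**
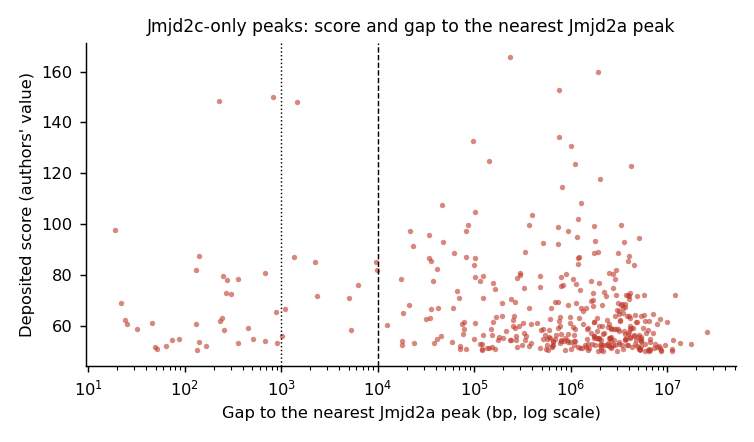
Authors' deposited score (y axis) of each of the 410 Jmjd2c-only regions against its gap to the nearest Jmjd2a peak in bp (x axis, log scale); the dotted line is at 1 kb and the dashed line at 10 kb. The 34 regions left of the dotted line range in score from 50.47 to 149.94, and most regions lie right of the dashed line.

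The regions just inside the rule missed a Jmjd2a peak by a few bases. The smallest gap was 19 bp, on chromosome 4, between a region from 32443730 to 32443931 (score 97.82) and a Jmjd2a peak from 32443951 to 32444138 (score 52.77). It was 22 bp on chromosome 7 at 71640050 to 71640276 (score 69.06), 24 bp on chromosome 2 at 27355823 to 27355973 (62.41), 25 bp on chromosome 18 at 62913683 to 62913868 (60.89) and 32 bp on chromosome 4 at 3008794 to 3009175 (58.77). Among shared peaks, those with the fewest common bases were either partial overlaps or narrow peaks that overlapped completely. On chromosome 7 a Jmjd2c peak from 71632267 to 71632625 (score 85.09) shared 17 bases, on chromosome 6 one from 108945188 to 108945556 (115.16) shared 63, and on chromosome 4 one from 45295398 to 45295624 (92.53) shared 66. On chromosome 5 (105356449 to 105356522, score 103.51) and chromosome 7 (80381991 to 80382064, score 82.38) peaks shared 74 bases, which was their whole width.

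The largest concentration of Jmjd2c-only regions was a stretch of chromosome 5 from 14928447 to 15198919, a span of 270 kb. All 30 Jmjd2c peaks there were Jmjd2c-only. They scored between 50.91 and 124.66 with a median of 69.0, and they were 122 to 1296 bp wide with a median of 295 bp. The single Jmjd2a peak in the stretch, from 15042834 to 15043160 (score 56.04), lay 5.28 kb from the nearest of them. The stretch contained 4 of the 8 groups. They ran from 14972235 to 14983143 (3 regions), from 14995096 to 15008655 (6 regions, scores 53.29 to 107.56), from 15024200 to 15037555 (5 regions) and from 15185435 to 15198919 (5 regions, scores 51.33 to 124.66). The second widest region of the whole set, 1296 bp with a score of 56.61, lay in the last of these. This stretch alone gave 30 of the 60 Jmjd2c-only regions of chromosome 5.

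A stretch of chromosome 7 showed another arrangement, with Jmjd2c-only regions threaded between Jmjd2a peaks. The group ran from 71611351 to 71640276 and held 12 Jmjd2c-only regions, 15 shared Jmjd2c peaks and 24 Jmjd2a peaks, of which 9 overlapped no Jmjd2c peak. The 12 regions scored 52.25 to 148.37 with a median of 73.6, and the 15 shared peaks of the same stretch scored 50.48 to 202.35 with a median of 83.2. Of the 12, 11 had a Jmjd2a peak within 1 kb, and the gaps ran from 22 bp to 1.34 kb. Chromosome 5 and chromosome 7 thus gave the 2 largest clusters of the set, the first with 0 of its 30 regions and the second with 11 of 12 within 1 kb of a Jmjd2a peak.

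**Figure D5:**
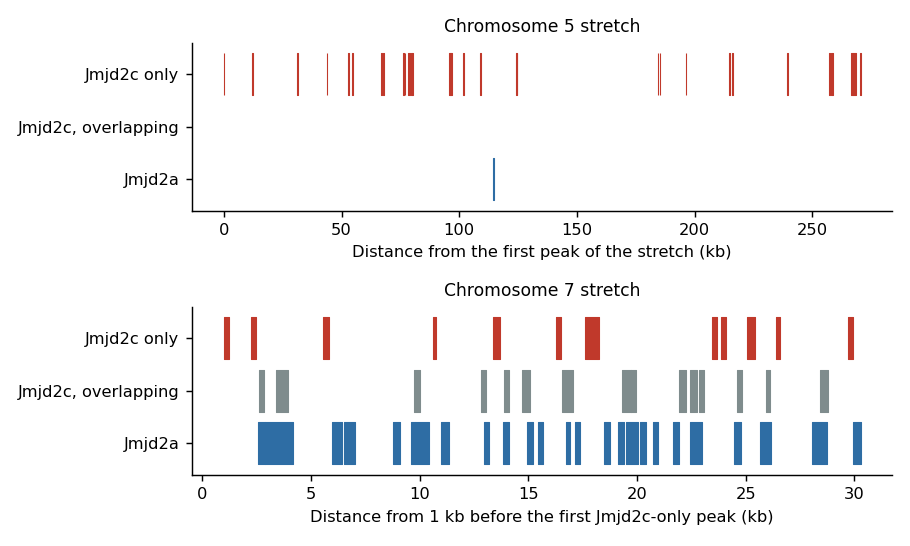
Peaks of the chromosome 5 stretch (top, kb from its first peak) and the chromosome 7 group (bottom, kb from 1 kb before the first Jmjd2c-only region); bars span each peak, in rows for Jmjd2c-only regions, shared Jmjd2c peaks and Jmjd2a peaks. The top map has 30 Jmjd2c-only regions and 1 Jmjd2a peak, and the bottom map has 12 regions interleaved with Jmjd2a peaks.

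Of the remaining 3 groups, 2 lay at the starts of chromosomes. On chromosome 4, 4 regions lay between 3007180 and 3011625 and scored 54.80 to 149.94, the first of them 1202 bp wide and separated from the next by 1 bp. A Jmjd2a-only peak of 910 bp lay among them. On chromosome 17, 3 regions from 3012232 to 3023145 scored 57.73 to 87.62, and the nearest Jmjd2a peak was 3.97 Mb away. In total 9 regions, on 4 chromosomes, started below 3.1 Mb (2.20%, 1.16 to 4.12), beside 1 of 215 shared Jmjd2c peaks (0.465%, 0.0822 to 2.59) and 2 of 321 Jmjd2a-only peaks (0.623%, 0.171 to 2.24), with overlapping intervals. In mm9 the mouse autosomes open with an unsequenced block that stands for the centromere, so these are among the first sequenced bases. Another window ran 5 Mb from the lowest peak of either list on each chromosome, so that peak is inside by construction. It need not lie near the chromosome start, and on chromosome 6 it began at position 19046874. In this window the share of Jmjd2c-only regions was 23 of 410 (5.61%, 3.77 to 8.28). It was below that of the shared peaks, 27 of 215 (12.6%, 8.78 to 17.7), and these intervals did not overlap. The Jmjd2a-only peaks had about the same share as the Jmjd2c-only regions, 17 of 321 (5.30%, 3.33 to 8.32). Of all 215 shared peaks, 101 (47.0%) lay within 10 kb of another shared peak. Their interval treats such neighbours as independent, so the separation is no test. The number of separate sites behind the 27 peaks was not counted.

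The last group was on chromosome 1 from 192125004 to 192127300, with 4 regions that scored 53.29 to 148.22, at 353 to 2353 bp from a Jmjd2a peak that ended at 192124650. Wide regions with low scores also stood on chromosome 8. The widest of the set, 1423 bp from 19757795 to 19759217, scored 50.99, and another of 1025 bp from 19968617 to 19969641 scored 54.71. Their nearest Jmjd2a peak was the same one for both, from 19923707 to 19927186, 3480 bp wide with a score of 53.29. The fifth widest region, 775 bp on chromosome 11 from 3000860 to 3001634, scored 56.17 and lay 1.03 kb from a Jmjd2a peak. Apart from the chromosome 4 region that scored 149.94, the 5 widest regions thus scored under 60.

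In the compact chromosome 2 stretch from 27333045 to 27358218, which held 16 Jmjd2c and 15 Jmjd2a peaks, Jmjd2c-only regions were few. They were 2 of the 16 (12.5%, 3.50 to 36.0), at 27333045 to 27333201 with a score of 52.63 and at 27355823 to 27355973 with a score of 62.41. The 14 shared peaks of that stretch scored 58.65 to 355.84 with a median of 94.6.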

How the data were processed

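ChIP-seq peaks of splenic B cells were compared by position. FastQC, Bowtie 0.12.7 and build mm9 are named in the submitters' processing notes. Peak names begin with MACS, a peak caller; not given in the sources used here were its release, parameters and control library. The authors' deposited lists used here are 2, 1 for Jmjd2a and 1 for Jmjd2c, and each line has a chromosome, start, end, name and score. The deposited score has no named scale, is not scaled between libraries, starts at 50.01 and ends at 3100, and was used within a list to rank and describe peaks.

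Scripts ran in Python 3.11.15 with pandas 2.3.3, scipy 1.17.1, numpy 2.4.6 and matplotlib 3.10.9. Sharing meant at least 1 bp in common. Gaps run between edges. Shares have 95% Wilson intervals, medians 95% order-statistic intervals. With 1 library per antibody no test was run. The stretches are runs of at least 20 autosomal peaks of both lists with gaps of at most 500 kb. Overlap code was tested on simulated data. The regions and groupings were chosen with earlier results of these data known. Regions named are the 10 highest in score, the 5 widest, the 5 nearest a Jmjd2a peak, the 5 shared peaks with fewest common bases, groups of at least 3, and each chromosome's leader; the paired regions, the chromosome 2 stretch and the chromosome starts below 3.1 Mb were added after values were seen. Planned work on sequences and genes was not run, since the tables at hand are of GRCm38.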

Additional observations from a re-analysis of the deposited data

How the results depend on the processing

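Of 39 alternative values for 5 results, 16 stayed within the 95% interval of the reported value and 23 did not. The share of autosomal Jmjd2c peaks without a partner (65.6%) was 73.9% with a 50% reciprocal overlap, 61.1% with centres within 1 kb counted as shared, 59.2% with edges within 5 kb, 51.1% among peaks at or above the median score of their list and 71.1% with peaks closer than 1 kb merged. The median score and width (59.3 and 177 bp) were 88.6 and 237 bp in the better-scoring part. The score is higher there by construction, and the width, which that choice does not use, was related to score across the regions (Spearman rho 0.48). The share with another such region within 10 kb (16.1%) was 22.5% with the reciprocal overlap, 12.4% with edges within 5 kb, 21.0% in the better-scoring part, 5.96% after merging, 11.7% without chromosome 5, 11.0% at a distance of 1 kb and 22.4% at 100 kb. The share with a Jmjd2a peak within 10 kb (11.0%) was 21.0% with the reciprocal overlap, 4.45% with centres within 1 kb, 1.35% with edges within 5 kb, 16.0% in the better-scoring part, 5.69% after merging, 8.29% at 1 kb and 21.0% at 100 kb. Leaving out the groups of 3 or more regions, an alternative chosen after seeing the data, gave 6.52% for both neighbour shares. Wider or stricter sharing rules and merging change these shares by construction. Since the depth is unknown, absence from the Jmjd2a list is not evidence that signal was absent. No paired analysis was possible because there are no replicates, and for that reason none could be left out.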
